A study of Spongilla lacustris with 18 samples.

Results

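Genes for the assembly of the large (60S) ribosomal subunit and for RNA polymerase I were followed in juvenile freshwater sponges, Spongilla lacustris. A row of the gene table was a member when its annotation held, as a whole word, any of 60 listed symbols or POLR1 followed by a letter. The rule took 57 of the 39562 genes in the table, and 53 of these were among the 24125 genes with enough reads to be tested. Of the 60 symbols, 48 had a row. POLR1C and POLR1E came in through the POLR1 rule, so that 5 POLR1 symbols were found. UBTF, DDX31, LAS1L, PELP1, TEX10, GNL3L, GTPBP4, PPAN, NOP10, DKC1, URB2 and REXO4 were not analysed here. NSUN2, NSUN5, NSUN6 and NSUN7, 4 RNA methyltransferases other than NOP2, matched because their full names contain "NOP2/Sun", and counts are also given without them (53 rows, 49 tested).

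The sponges were wild type, were kept for 9 days at 18 °C in M-medium, and were taken as whole bodies for sequencing of polyA RNA. The groups were 37.5 µM tryptamine for 1 h, 0.03% DMSO for 1 h, tryptamine for 4 h, DMSO for 4 h, tryptamine for 4 h followed by washout and 24 h of recovery, and DMSO with the same washout and recovery, with 3 libraries in each. Tryptamine is an indole amine made from tryptophan, and DMSO is the solvent used as vehicle. The labels do not say whether the replicates came from separate cultures or clones or from pooled animals, so the p-values measure only the spread between these samples. The recovery groups differ from the 4 h groups in both washout and time, which cannot be told apart. The libraries held 11379345 to 23769406 counted read pairs, and no 2 replicates agreed within sampling noise.

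Eukaryotic ribosomes are built mainly in the nucleolus. RNA polymerase I copies the ribosomal DNA into a long precursor, which is cut and chemically modified while ribosomal proteins and assembly factors join it. Helicases, GTPases and AAA ATPases remodel the particle of the future large subunit and strip factors from it before it leaves the nucleus and loses its last factors in the cytoplasm. Output of this pathway commonly rises with growth and falls when nutrients or growth signals are short. In sponges, archaeocytes, the mobile stem-like cells with a prominent nucleolus, are classically described as rich in RNA.

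Although the rule goes by symbol, the list was selected on earlier values of these data, the differences between tryptamine and DMSO after recovery. The comparisons of 1 h and 4 h libraries contrast no recovery libraries and are read as tests. Their filter, scaling and estimate of the spread came from all 18 libraries, recovery included. Comparisons that use recovery libraries are read as descriptions. Levels are CPM, counts scaled by the library total and TMM factors, and levels of different genes are compared per kb of the longest transcript. Differences are log2 ratios from a model fitted across all tested genes, with their SE, and "called" means an adjusted p under 0.05 in edgeR's quasi-likelihood test with Benjamini-Hochberg adjustment over the 24125 genes. The same threshold was applied to the comparisons with recovery libraries, where "called" or "not called" only says on which side of it a gene fell and is no independent evidence, since those libraries took part in the choice of the list. In whole bodies, fewer cells of a type and less RNA per cell cannot be told apart.

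The members were of moderate abundance. The tested members had a median level over the 18 libraries of 20.6 CPM per kb, against 9.56 CPM per kb over all tested genes. Over all 57 members the median was 19.6 CPM per kb (range 0.128 to 105). The highest were NHP2 and GAR1, core proteins of the H/ACA particles that guide pseudouridylation of RNA, at 105 and 96.9 CPM per kb. MRTO4, a placeholder for a stalk protein of the ribosome, had 88.1 CPM per kb, and PES1, the scaffold of the PeBoW complex, had 86.4 CPM per kb. Levels per kb can be too low in genes with several assembled transcripts, whose shared read pairs would not be counted. The ranking is therefore approximate. NHP2, GAR1 and MRTO4 have 1 transcript each and PES1 has 4. The 53 tested members had a median SD between libraries of a group of 0.230 on the log2 scale, against 0.255 over the 17997 tested genes with a mean of at least 20 counts. The remaining 4 rows were too low to test, namely POLR1C with 121 counts in all 18 libraries together, SDAD1 with 113, the MDN1 row c108845-g1 with 86 and RPF2 with 29.

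After washout and recovery the members were higher in tryptamine sponges than in DMSO sponges, with few exceptions. Their summed level was 2083 ± 95.0 CPM in tryptamine recovery and 1288 ± 103 CPM in DMSO recovery (SD, n = 3 each). The 3 tryptamine libraries lay between 2010 and 2191 CPM and the 3 DMSO libraries between 1193 and 1398 CPM, so the groups did not overlap. The median log2 difference of the 53 tested members was 0.70, against -0.03 over all tested genes, and 51 of 53 were positive, against 47.4% of all tested genes. The 3 tryptamine libraries lay above all 3 DMSO libraries for 48 of 53 members, against 13.4% of all tested genes, and below them for 0, against 10.6%. Called higher were 23 of 53, against 1.36% of all tested genes, and called lower were 0, against 0.497%. Without the 4 NOP2/Sun rows, 22 of 49 were called higher and 49 of 49 were positive, with a median of 0.70. Since the members were proposed from this comparison, these counts describe the choice and are read no further. The same holds for the counts by role that follow.

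The count of calls rested on single libraries while the median did not. Leaving out tryptamine recovery replicate 1, 2 or 3 left 6, 0 or 14 members called higher, and leaving out DMSO recovery replicate 1, 2 or 3 left 0, 7 or 0. The median stayed between 0.65 and 0.77 in these fits.

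**Figure D1:**
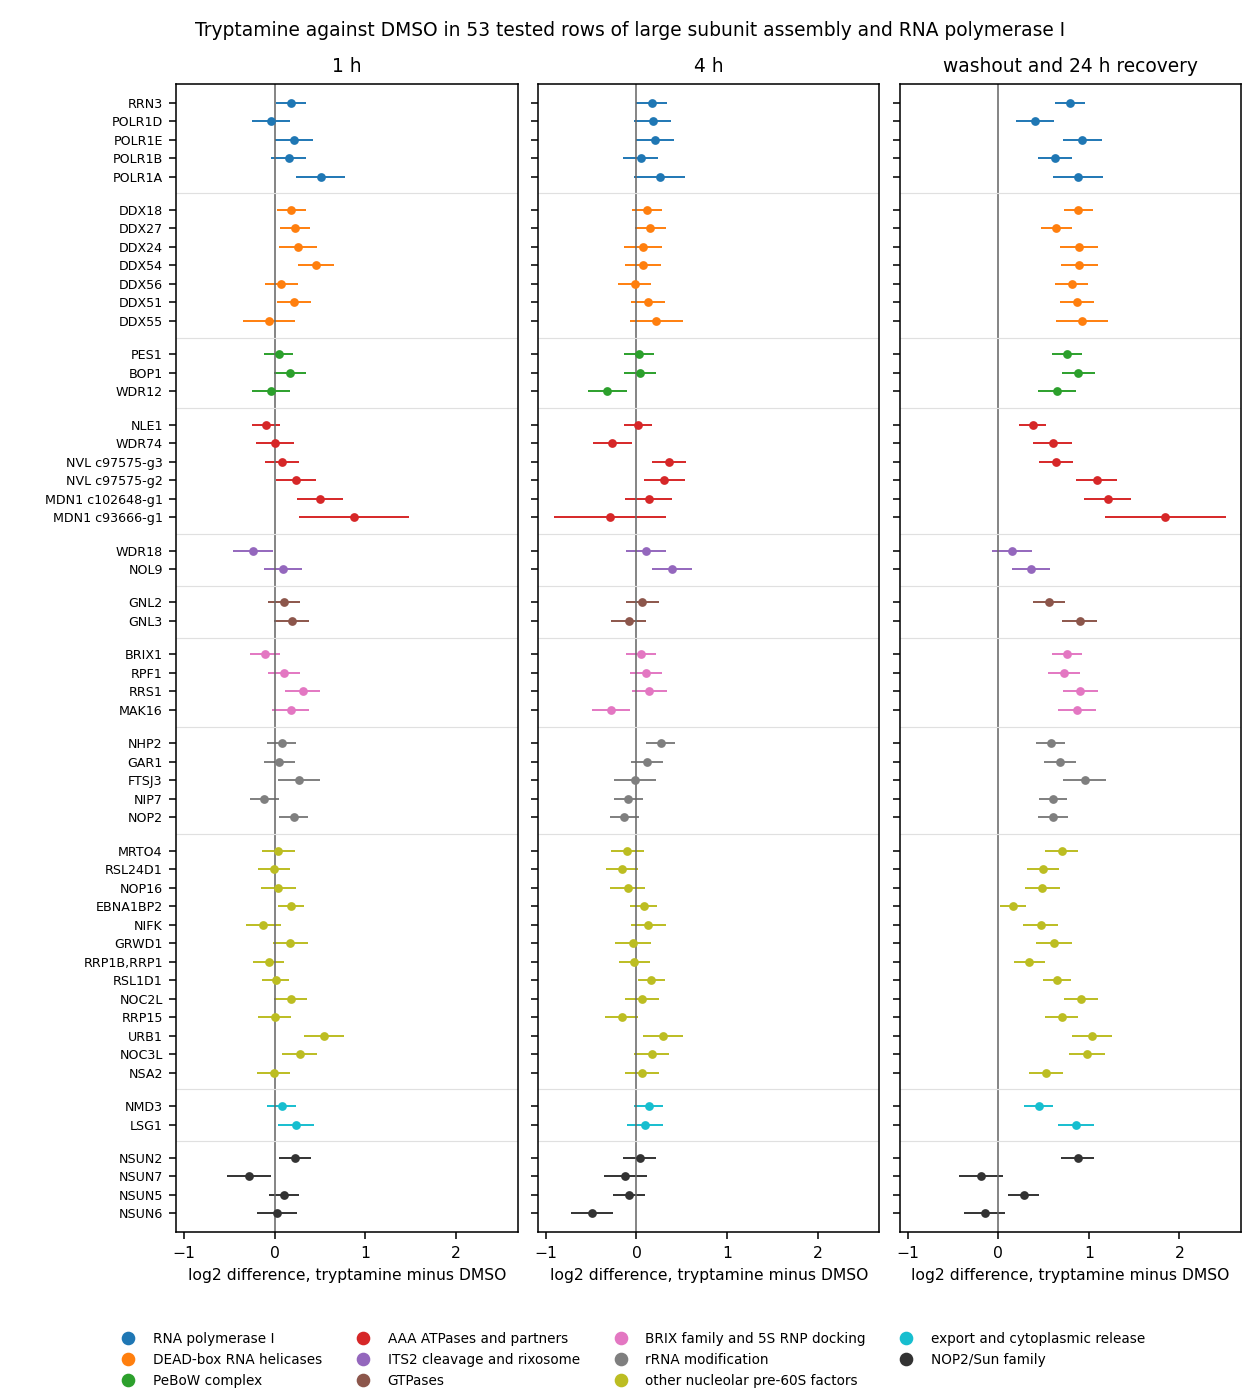
Log2 difference between tryptamine and DMSO (x axis) for each of the 53 tested members (rows, coloured by role), at 1 h, 4 h and after washout and 24 h recovery. Points are estimates and bars 1 SE. Points scatter around 0 at 1 h and 4 h, with medians of 0.10 and 0.07, and after recovery 51 of 53 lie right of 0.

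Members of RNA polymerase I showed this difference in all 5 tested rows, with a median of 0.79. Of these rows 2 were called, against 1.36% of all tested genes called higher. RRN3, the initiation factor that ties the polymerase to its promoter, had 69.4, 76.3 and 60.9 CPM in tryptamine recovery, against 40.0, 41.2 and 38.2 CPM in DMSO recovery. All 3 tryptamine libraries were above all 3 DMSO libraries, a log2 difference of 0.79 (SE 0.17). POLR1E, a subunit particular to RNA polymerase I, had 22.7, 18.8 and 26.0 CPM in tryptamine recovery, against 11.2, 12.6 and 11.7 CPM in DMSO recovery, and its log2 difference was 0.93 (SE 0.22). POLR1D, a subunit shared with RNA polymerase III, had 14.5, 14.7 and 13.3 CPM in tryptamine recovery and 12.5, 12.1 and 7.67 CPM in DMSO recovery. Its groups lay closer together, with a log2 difference of 0.40 (SE 0.21) that was not called. The tested polymerase members ranged from 0.40 to 0.93.

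The 7 DEAD-box RNA helicases, which remodel RNA in the maturing particle, had a median of 0.88 and a range from 0.64 to 0.92. All 7 had non-overlapping groups and 5 were called, against 13.4% and 1.36% of all tested genes in that direction. DDX18 had 76.1, 89.1 and 82.1 CPM in tryptamine recovery, against 41.7, 46.3 and 46.0 CPM in DMSO recovery, a log2 difference of 0.88 (SE 0.16). DDX24 had 45.2, 42.1 and 32.0 CPM in tryptamine recovery, against 22.6, 21.4 and 20.4 CPM in DMSO recovery (0.89, SE 0.21). DDX27 had 62.8, 62.8 and 59.0 CPM in tryptamine recovery, against 34.6, 46.0 and 37.7 CPM in DMSO recovery (0.64, SE 0.17), and was not called. Tryptamine libraries were the higher ones in each of these helicases.

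The PeBoW complex is needed for removal of the internal spacer ahead of the large subunit rRNA. Its 3 members were each higher in tryptamine recovery, and 2 were called, against 1.36% of all tested genes. PES1 had 136, 152 and 153 CPM in tryptamine recovery, against 74.3, 96.9 and 89.3 CPM in DMSO recovery, a log2 difference of 0.76 (SE 0.16). BOP1, its WD repeat partner, had 44.1, 47.9 and 48.2 CPM in tryptamine recovery, against 22.6, 27.7 and 25.5 CPM in DMSO recovery (0.89, SE 0.18). WDR12, the other WD repeat partner, was lower in level, at 9.11, 8.84 and 7.83 CPM in tryptamine recovery and 5.40, 5.66 and 5.37 CPM in DMSO recovery (0.65, SE 0.21), and was not called. For all 3 genes the groups did not overlap, against 13.4% of all tested genes with tryptamine above.

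The AAA ATPases and their substrates had a median of 0.86. The groups of all 6 tested rows did not overlap, against 13.4% of all tested genes with tryptamine above. MDN1, the giant ATPase that pulls assembly factors off the particle, had 3 rows. Row c102648-g1 had 18.8, 19.6 and 25.01 CPM in tryptamine recovery, against 8.41, 8.98 and 10.0 CPM in DMSO recovery. At 1.21 (SE 0.26) this was the largest log2 difference among the members with a mean of at least 20 counts. Row c93666-g1 was much lower, at 0.943, 1.75 and 2.06 CPM in tryptamine recovery and 0.238, 0.162 and 0.826 CPM in DMSO recovery, with a log2 difference of 1.84 (SE 0.67). That row was not called and averaged 14.2 counts over the 6 libraries. Since pieces of a long transcript can be assembled apart, the rows may belong to the same gene. Each tested row still entered the counts and medians as a member of its own, so these do not count independent genes.

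NVL, the nucleolar ATPase that releases WDR74, had 2 rows. Row c97575-g2 had 10.1, 12.9 and 9.34 CPM in tryptamine recovery, against 5.00, 4.77 and 5.37 CPM in DMSO recovery, a log2 difference of 1.09 (SE 0.22). Row c97575-g3 had 15.8, 15.3 and 12.3 CPM in tryptamine recovery and 8.25, 10.8 and 8.97 CPM in DMSO recovery (0.63, SE 0.19). Both rows had non-overlapping groups, against 13.4% of all tested genes with tryptamine above. They too may belong to the same gene, and each entered the counts as a member of its own. WDR74 had 11.8, 16.4 and 12.8 CPM in tryptamine recovery, against 7.78, 9.70 and 9.50 CPM in DMSO recovery (0.60, SE 0.22). NLE1, a substrate of MDN1, had the smallest difference of this class, with 36.3, 44.5 and 33.8 CPM in tryptamine recovery and 25.8, 32.5 and 29.8 CPM in DMSO recovery (0.38, SE 0.15).

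The rixosome subunit WDR18 and the kinase NOL9 were among the members with the smaller values, and whether they differ from the other members was not tested. WDR18 had 6.83, 8.91 and 7.01 CPM in tryptamine recovery and 6.51, 6.87 and 7.08 CPM in DMSO recovery. Its groups overlapped, with a log2 difference of 0.15 (SE 0.22). NOL9, a polynucleotide kinase that works with the nuclease of the internal spacer, had 4.95, 5.77 and 3.78 CPM in tryptamine recovery and 3.81, 4.04 and 3.42 CPM in DMSO recovery (0.36, SE 0.21), and its groups also overlapped. Neither gene was called.

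Both nucleolar GTPases had all tryptamine recovery libraries above all DMSO recovery libraries, against 13.4% of all tested genes. Called higher was 1 of the 2, against 1.36%. GNL3, nucleostemin, had 53.2, 51.8 and 56.4 CPM in tryptamine recovery, against 23.8, 31.4 and 31.3 CPM in DMSO recovery, a log2 difference of 0.90 (SE 0.20), and was called. GNL2 had 63.0, 71.9 and 54.2 CPM in tryptamine recovery, against 37.7, 50.9 and 39.7 CPM in DMSO recovery (0.56, SE 0.18), and was not called.

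All 4 tested members of the BRIX family and its partners were called, against 1.36% of all tested genes. The median of the 4 was 0.82. BRIX1, the name gene of this RNA-binding family, had 50.8, 59.1 and 59.2 CPM in tryptamine recovery, against 29.4, 38.6 and 31.8 CPM in DMSO recovery, a log2 difference of 0.76 (SE 0.17). RPF1, another member of the family, had 31.3, 24.9 and 26.0 CPM in tryptamine recovery, against 15.1, 19.1 and 15.6 CPM in DMSO recovery (0.72, SE 0.18). RRS1, which in yeast helps to dock the 5S RNP, had 27.3, 23.7 and 24.2 CPM in tryptamine recovery, against 13.3, 14.1 and 12.7 CPM in DMSO recovery (0.91, SE 0.19). The lowest tryptamine library lay above the highest DMSO library in each, against 13.4% of all tested genes.

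All 5 genes for rRNA modification and its partner proteins had non-overlapping groups, against 13.4% of all tested genes. Among the 5, 1 was called, against 1.36%. That gene was FTSJ3, a ribose methyltransferase called Spb1 in yeast, with 94.6, 103 and 99.97 CPM in tryptamine recovery, against 43.4, 57.1 and 53.0 CPM in DMSO recovery (0.95, SE 0.23). NHP2 had 88.5, 103 and 75.9 CPM in tryptamine recovery, against 57.7, 65.3 and 56.3 CPM in DMSO recovery (0.58, SE 0.16). GAR1 had 97.7, 84.0 and 80.5 CPM in tryptamine recovery, against 51.0, 59.6 and 53.2 CPM in DMSO recovery (0.68, SE 0.18). Both H/ACA proteins were higher in every tryptamine library although not called.

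Among the 13 other nucleolar factors, 4 were called and 12 had non-overlapping groups, against 1.36% and 13.4% of all tested genes. The median of the 13 was 0.62. URB1 had 38.6, 39.2 and 48.1 CPM in tryptamine recovery, against 18.3, 25.4 and 18.0 CPM in DMSO recovery, a log2 difference of 1.03 (SE 0.22). NOC3L, Noc3 in yeast, had 24.7, 24.8 and 20.3 CPM in tryptamine recovery, against 10.9, 12.7 and 11.7 CPM in DMSO recovery (0.98, SE 0.20). MRTO4 had 86.2, 89.9 and 82.0 CPM in tryptamine recovery, against 51.9, 57.8 and 48.9 CPM in DMSO recovery (0.70, SE 0.18). These 3 genes had clear gaps between the groups. RSL24D1, which holds the place of a ribosomal protein in the early particle, had 50.6, 65.6 and 47.9 CPM in tryptamine recovery and 34.4, 45.3 and 36.9 CPM in DMSO recovery (0.49, SE 0.18). NOP16 had 28.4, 29.3 and 27.8 CPM in tryptamine recovery and 20.2, 22.3 and 18.5 CPM in DMSO recovery (0.48, SE 0.19). EBNA1BP2, Ebp2 in yeast, had 42.4, 42.0 and 42.0 CPM in tryptamine recovery and 36.3, 35.8 and 40.6 CPM in DMSO recovery. Its groups did not overlap, but the log2 difference was 0.16 (SE 0.15), the smallest of the 13. Whether EBNA1BP2 differs from the other factors was not tested.

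Both factors of export and cytoplasmic release had non-overlapping groups, against 13.4% of all tested genes with tryptamine above. NMD3, the adaptor that takes the large subunit out of the nucleus, had 112, 108 and 93.2 CPM in tryptamine recovery, against 83.0, 74.9 and 71.8 CPM in DMSO recovery, a log2 difference of 0.45 (SE 0.16), and was not called. LSG1, the GTPase that releases NMD3 in the cytoplasm, had 55.5, 62.9 and 61.4 CPM in tryptamine recovery, against 34.7, 34.7 and 29.5 CPM in DMSO recovery (0.86, SE 0.20), and was called.

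**Figure D2:**
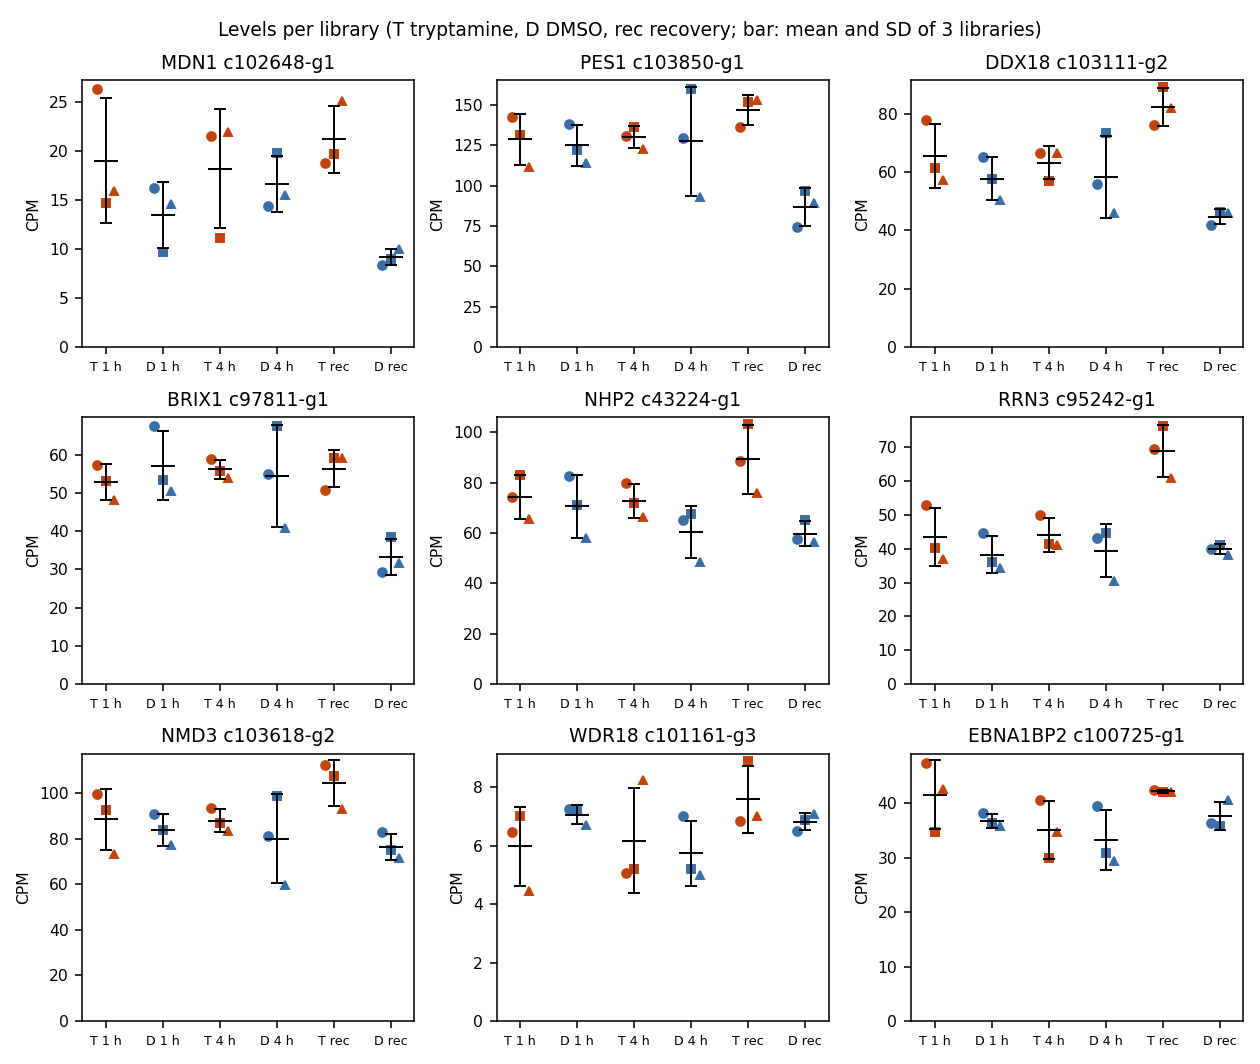
CPM per library (y axis) of 9 members in the 6 groups (x axis, tryptamine left of DMSO at each time), with circles, squares and triangles for replicates 1, 2 and 3 and bars for the mean and SD. In MDN1, PES1, DDX18, BRIX1, NHP2, RRN3, NMD3 and EBNA1BP2 the 3 tryptamine recovery libraries lie above the 3 DMSO recovery libraries. In WDR18 the groups overlap. The log2 difference is 0.15 in WDR18 and 0.16 in EBNA1BP2.

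The 4 NOP2/Sun rows did not move as a group, with a median of 0.07. NSUN2, a tRNA and mRNA cytosine methyltransferase, had 44.5, 58.8 and 46.4 CPM in tryptamine recovery, against 26.5, 27.4 and 27.6 CPM in DMSO recovery (0.88, SE 0.18), and was called. NSUN5, an rRNA methyltransferase, had 10.1, 11.0 and 10.2 CPM in tryptamine recovery and 9.60, 8.49 and 7.61 CPM in DMSO recovery (0.28, SE 0.17). NSUN6, a methyltransferase of tRNA and mRNA, gave -0.15 (SE 0.22) and NSUN7 gave -0.19 (SE 0.24). These were the 2 negative values among the 53.

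At 1 h the question was whether tryptamine moved these genes during short exposure, and 0 of 53 members were called higher and 0 lower, as were 0% of all tested genes in either direction. The median log2 difference was 0.10 (all tested genes 0.02), the values ran from -0.29 to 0.88, and 40 of 53 were positive, against 52.8% of all tested genes. The members summed to 1775 ± 300 CPM in tryptamine sponges, against 1631 ± 227 CPM in DMSO sponges (SD, n = 3 each), and the ranges of the 2 groups overlapped. Same-numbered libraries at 1 h deviated together, and within numbers 1, 2 and 3 the sums were 2102, 1713 and 1512 CPM in tryptamine sponges, against 1871, 1604 and 1419 CPM in DMSO sponges, higher with tryptamine in 3 of 3. The median log2 ratios of these pairs were 0.19, 0.09 and 0.10, with 36, 35 and 39 of 53 members higher. The fit with the replicate number as a block also called 0 members. Without tryptamine 1 h replicate 1 the median was -0.02. DESeq2 and limma-voom also called 0 members in each direction. At an unadjusted p under 0.05, 2 members were higher and 0 lower, against 3.01% and 3.43% of all tested genes. URB1 had 51.8, 33.5 and 35.9 CPM with tryptamine, against 32.1, 26.2 and 24.9 CPM with DMSO, a log2 difference of 0.54 (SE 0.22, adjusted p = 0.744 in edgeR). DDX54, a helicase, had 39.4, 27.6 and 26.4 CPM with tryptamine, against 25.7, 21.5 and 20.7 CPM with DMSO (0.46, SE 0.20, adjusted p = 0.748 in edgeR). Neither passed the adjustment. With POLR1A these were the 3 members whose tryptamine libraries all lay above the DMSO libraries, against 5.99% of all tested genes, and NSUN7 was the 1 member with all below, against 6.18%.

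At 4 h, 0 of 53 members were called higher and 0 lower, against 0.236% and 1.27% of all tested genes. The median log2 difference was 0.07 (all tested genes 0.00), the range -0.49 to 0.39, and 35 of 53 were positive, against 50.6%. The members summed to 1776 ± 114 CPM in tryptamine sponges, against 1720 ± 349 CPM in DMSO sponges (SD, n = 3 each). Without tryptamine 4 h replicate 1 the median was -0.01, and without DMSO 4 h replicate 3 it was -0.07. DESeq2 and limma-voom again called 0 in each direction. At an unadjusted p under 0.05, 0 members were higher and 1 lower, against 5.24% and 6.49% of all tested genes. That member was NSUN6, with 2.69, 2.08 and 2.47 CPM with tryptamine and 3.69, 3.68 and 2.89 CPM with DMSO (-0.49, SE 0.23, adjusted p = 0.418 in edgeR). NOL9 was the 1 member with all tryptamine libraries above the DMSO libraries, against 6.19%, and NSUN6 the 1 with all below, against 7.34%. MDN1 c102648-g1 had 21.5, 11.2 and 21.9 CPM with tryptamine and 14.4, 19.8 and 15.5 CPM with DMSO, which overlapped, and PES1 had 131, 136 and 123 CPM with tryptamine and 129.5, 159.8 and 92.8 CPM with DMSO.

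The test of the change of the tryptamine effect between 1 h and 4 h called 0 of 53 members in either direction, as it called 0% of all tested genes. At an unadjusted p under 0.05, 0 members were higher and 0 lower, against 1.54% and 2.58%. Its median was -0.10 and the smallest adjusted p among the members was 1.00 in edgeR's test. DESeq2 and limma-voom also called 0, and the median was 0.08 without tryptamine 1 h replicate 1 and 0.05 without DMSO 4 h replicate 2.

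Within a library the members tended to deviate together from their group means, so libraries of the same group often lay apart. At 1 h, tryptamine replicates 1, 2 and 3 had 48, 20 and 6 of 53 members above their group's mean, and DMSO replicates 1, 2 and 3 had 51, 20 and 7. At 4 h the numbers were 41, 13 and 22 with tryptamine and 30, 50 and 3 with DMSO, and after recovery 24, 39 and 17 with tryptamine and 9, 44 and 27 with DMSO. A high or low library therefore shifted most members at once. The SD of the members' median between replicate libraries was 0.189 on the log2 scale. Single libraries ran from -0.29 (DMSO 4 h replicate 3) to 0.29 (tryptamine 1 h replicate 1). At 4 h the replicate 2 pair gave a median log2 ratio of -0.34 and the replicate 3 pair one of 0.37, so that the direction at 4 h depended on the library. After recovery the medians of the 3 tryptamine libraries were 0.24 to 0.35 above the members' 18-library mean and those of the 3 DMSO libraries 0.27 to 0.51 below it.

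**Figure D3:**
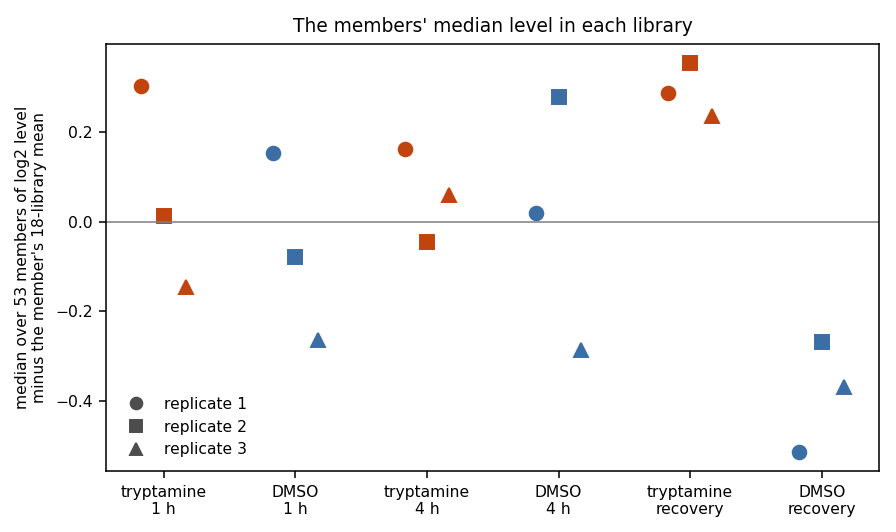
Median over the 53 tested members of the log2 level minus the member's mean over 18 libraries (y axis), for each library of the 6 groups (x axis), with tryptamine left of DMSO at each time. The tryptamine and DMSO libraries overlap at 1 h and 4 h, and after recovery the 3 tryptamine libraries lie above 0 and the 3 DMSO libraries below it.

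Recovery was also set against 4 h within each arm. In DMSO sponges most members were lower in recovery than at 4 h, with a median log2 difference of -0.43 and a range of -1.57 to 0.28. Negative were 48 of 53 members, against 49.2% of all tested genes. The members' summed levels overlapped, from 1193 to 1398 CPM in DMSO recovery and from 1374 to 2072 CPM in DMSO at 4 h. Of the members, 11 of 53 were called lower, against 4.33% of all tested genes, and 0 higher, against 2.54%. The recovery libraries all lay below the 4 h libraries for 27 of 53, against 13.4%, and above them for 1, against 14.3%. The count depended on single libraries: without DMSO 4 h replicate 1, 2 or 3 it was 5, 0 or 15, and without DMSO recovery replicate 1, 2 or 3 it was 0, 4 or 1. BRIX1 had 29.4, 38.6 and 31.8 CPM in DMSO recovery, against 54.9, 67.6 and 40.9 CPM in DMSO at 4 h, a log2 difference of -0.71 (SE 0.17). GNL3 had 23.8, 31.4 and 31.3 CPM in DMSO recovery, against 46.6, 68.8 and 38.0 CPM in DMSO at 4 h (-0.83, SE 0.20). NOP2, the cytosine methyltransferase of the large rRNA, had 35.8, 42.8 and 39.9 CPM in DMSO recovery, against 52.3, 73.5 and 62.8 CPM in DMSO at 4 h (-0.67, SE 0.16). In these 3 genes the groups did not overlap.

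In tryptamine sponges the recovery libraries lay above the 4 h libraries by a smaller amount, with a median log2 difference of 0.25 and a range of -0.14 to 0.64. Positive were 49 of 53 members, against 54% of all tested genes, and 1 was called higher, against 1.4%, while 0 were called lower, against 3.45%. The recovery libraries all lay above the 4 h libraries for 18 of 53, against 11.7%, and below them for 0, against 9.85%. The called member was RRN3, with 69.4, 76.3 and 60.9 CPM in tryptamine recovery and 50.005, 41.5 and 41.0 CPM in tryptamine at 4 h (0.64, SE 0.17). RRN3 did not share the difference in DMSO sponges, where recovery had 40.0, 41.2 and 38.2 CPM and 4 h had 43.3, 44.5 and 30.4 CPM (0.01, SE 0.17). That call was lost without tryptamine 4 h replicate 2 or 3, or tryptamine recovery replicate 1 or 2, each of which left 0 called.

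Set side by side, 44 of 53 members were lower after recovery in DMSO sponges and higher in tryptamine sponges, 5 were higher in both, 4 were lower in both, and 0 were higher in DMSO and lower in tryptamine sponges. The absolute log2 difference was larger in the DMSO arm for 38 of 53. With 1 library left out, the median ran from -0.57 to -0.27 in DMSO sponges and from 0.17 to 0.29 in tryptamine sponges. Whether the size of the change differs between the arms was not tested. Tryptamine recovery had the highest mean of the 6 groups for 45 of 53 members, against 23.2% of all tested genes, and DMSO recovery the lowest for 45 of 53, against 17.4%. The change of the tryptamine effect from 4 h to recovery had a median of 0.70 and 0 of 53 members called, against 0.0953% of all tested genes called higher and 0% lower.

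**Figure D4:**
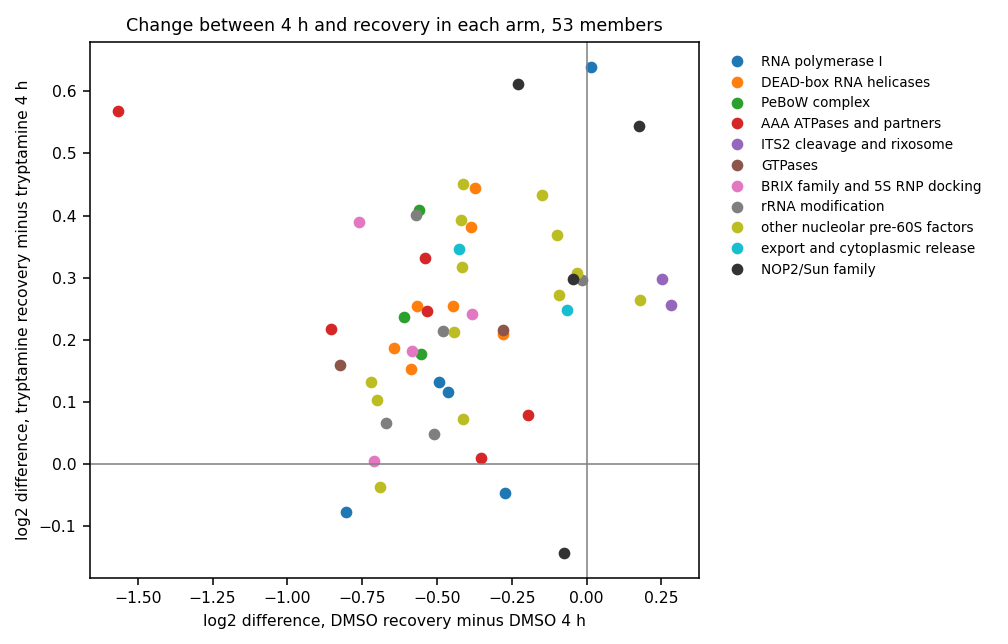
Log2 difference between recovery and 4 h in tryptamine sponges (y axis) against the same in DMSO sponges (x axis) for the 53 tested members, coloured by role. Of the 53 points, 44 lie in the upper left, lower in DMSO recovery and higher in tryptamine recovery.

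Between 4 h and 1 h, each arm was tested against its own earlier time. In tryptamine sponges 0 of 53 members were called higher and 0 lower, against 0.269% and 0.0788% of all tested genes, with a median of -0.01. NSUN7 at 0.55 was higher at an unadjusted p under 0.05, and NSUN5 at -0.48 and NSUN6 at -0.51 were lower, with adjusted p = 0.353, 0.214 and 0.365 in edgeR's test. That is 1 member higher and 2 lower, against 7.44% and 5.06% of all tested genes. The median was 0.15 without tryptamine 1 h replicate 1 and 0.04 without tryptamine 4 h replicate 2. In DMSO sponges 0 were called higher and 0 lower, against 2.81% and 1.05%, with a median of 0.06. The 1 member past an unadjusted p of 0.05 was NOP2, with 52.3, 73.5 and 62.8 CPM at 4 h and 49.8, 44.2 and 39.8 CPM at 1 h (0.49, SE 0.16, adjusted p = 0.111 in edgeR), so 1 was higher and 0 lower, against 8.3% and 6.67%. The median was -0.02 without DMSO 1 h replicate 3 and -0.07 without DMSO 4 h replicate 2. In both arms DESeq2 and limma-voom also called 0 members in each direction.

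Other steps of the pathway were read from further lists in the same comparison after recovery, each as a description. Of all tested genes, 1.36% were called higher and 0.497% lower in it. Box C/D and nucleolar proteins, which guide ribose methylation, had a median of 0.79, with 5 of 9 called higher and 0 lower. FBL, fibrillarin, the methyltransferase of those particles, gave 0.93 (SE 0.20) and was called, and SNU13, which binds the guide RNA, gave 0.70 (SE 0.19) and was not. The late 60S maturation list had a median of 0.58, with 2 of 5 called higher and 0 lower, and its most abundant row, PA2G4, gave 0.64 (SE 0.16). The exosome and rRNA trimming list, which holds the 3' to 5' nuclease complex, had a median of 0.42, with 2 of 15 called higher and 0 lower. SKIV2L2, the helicase that feeds the exosome, gave 1.01 (SE 0.26), while EXOSC10, a nuclease of the complex, gave 0.25 (SE 0.12). RNA polymerase III had a median of 0.24 and 0 of 8 called, and RNA polymerase II a median of 0.11 and 0 of 7 called. The tryptamine libraries all lay above the DMSO libraries for 3 of 8 and 3 of 7 of these rows, against 13.4% of all tested genes. They lay below for 0, against 10.6%. Lists this short cannot show whether 0 called differs from the share of all tested genes. None of these lists was set against the members by a test.

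**Figure D5:**
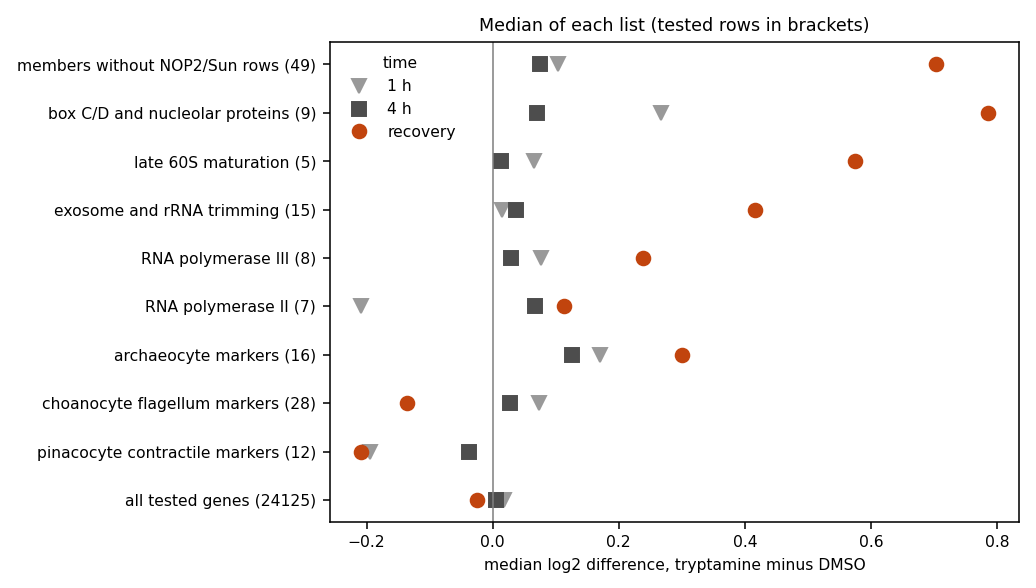
Median log2 difference between tryptamine and DMSO (x axis) for the members without the NOP2/Sun rows, for other lists and for all tested genes (rows, number of tested rows in brackets), at 1 h, 4 h and recovery. The members' median is 0.70 after recovery, against -0.03 for all tested genes.

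Markers of cell types were read beside the recovery difference, for archaeocytes, for the flagellum of the feeding choanocytes and for the contractile cells of the pinacocyte lining. All 16 archaeocyte rows and all 12 pinacocyte rows had counts, and 1 of 29 choanocyte rows was at 0 in all libraries. Summed archaeocyte markers ran from 1771 to 2132 CPM in tryptamine recovery and from 1809 to 1979 CPM in DMSO recovery, which overlapped. The most abundant row, MSI1,MSI2, at 652 CPM per kb, gave -0.27 (SE 0.19) and was 1 of the 2 negative rows. The next, DDX3X, at 164 CPM per kb, gave 0.34 (SE 0.14). Positive were 14 of 16 rows, against 47.4% of all tested genes, and the median of the list was 0.30. The 3 tryptamine libraries lay above the 3 DMSO libraries for 8 of 16 rows, against 13.4% of all tested genes. They lay below them for 0, against 10.6%. Called higher was 1 row and lower 0, against 1.36% and 0.497% of all tested genes. Choanocyte markers summed to 677 to 923 CPM in tryptamine recovery and 831 to 997 CPM in DMSO recovery. Their median was -0.14 and 22 of 28 tested rows were negative, against 12684 of all 24125 tested genes. Of the 28, 0 lay above and 7 below without overlap, against 13.4% and 10.6% of all tested genes. Called higher were 0 and lower 2, against 1.36% and 0.497%. Pinacocyte markers summed to 4407 to 5060 CPM in tryptamine recovery and 4836 to 5284 CPM in DMSO recovery. Their median was -0.21 and 9 of 12 rows were negative, against 12684 of all 24125 tested genes. Of these 12, 1 lay above and 5 below without overlap, against 13.4% and 10.6% of all tested genes. Called were 0 in either direction, against 1.36% higher and 0.497% lower. Most archaeocyte rows were positive, and most choanocyte and pinacocyte rows negative. The summed ranges of each list overlapped between tryptamine and DMSO recovery. The part of cell type shares in the recovery difference was not tested.

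Many of the genes had several assembled transcripts, and read pairs that fit several of them would not be counted, so their levels rest on the stretches where transcripts differ. The recovery difference had a median of 0.64 in the 21 tested rows with 1 transcript, of which 20 were positive, and 0.80 in the 32 with several, of which 31 were positive. Strand was not used in counting, so reads of an overlapping antisense transcript would be included. Symbols in the table state similarity to vertebrate genes, and the row for RRP1 carries 2 symbols, RRP1B and RRP1.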

How the data were processed

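PolyA RNA of 18 whole-body samples was sequenced. The authors deposited raw counts, in which each gene holds its number of read pairs, from featureCounts 2.1.1 per the file headers, with both ends mapped, chimeric pairs left out and no strand setting. STAR was the aligner per the submitters' processing notes, its version not given in the sources used. Features were genes of an assembled transcriptome, and the deposited length column holds the sum over a gene's transcripts. No sequence was used, and 0 columns of per-sample values were left out.

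The members and lists were chosen with earlier results of these data known. Counts were filtered by filterByExpr, scaled by TMM (factors 0.854 to 1.09) and fitted in R 4.3.3 with edgeR 4.0.16 (robust quasi-likelihood, 18 libraries, a mean per group, 12 residual degrees of freedom), two-sided, with Benjamini-Hochberg adjustment over 24125 genes at 0.05. The biological coefficient of variation was 21.0%. The procedure was tested on simulated data. Genes named with values were MDN1, the 3 most abundant rows per role (by CPM per kb), and the 5 largest and 5 smallest recovery differences among rows with a mean of at least 20 counts; POLR1A, DDX54, NOP2 and the low rows were named after their values were seen. From other lists at most the 2 most abundant rows were named. Counting 3 pairs as the floor, precision was limited by 3 libraries a group.

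Alternatives were median-of-ratios scaling, DESeq2 1.42.0, limma-voom 3.58.1, no filter, a stricter filter of 50 counts in 3 libraries, the compared groups alone, removal of a length trend, other matching of symbols, a replicate block and leaving out each library. The deviations of same-numbered libraries from their group means correlated at 0.362 to 0.458 between tryptamine and DMSO at 1 h, 0.140 to 0.215 at 4 h, 0.198 to 0.302 between DMSO at 4 h and 1 h, and 0.255 to 0.491 between tryptamine at 4 h and 1 h. There the numbers were read as pairs from the data, since the labels state no shared culture or day. After recovery the correlation between arms was 0.0964 to 0.320, and between recovery and 4 h -0.180 to 0.0761 in DMSO and 0.0435 to 0.149 in tryptamine, so the numbers were not read as pairs.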

Additional observations from a re-analysis of the deposited data

How the results depend on the processing

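The median log2 differences of the members moved by less than the spread between replicate libraries (0.189) in each of the settings run, and none turned the direction of a called value. At 1 h, at 4 h and between those times 0 members were called in each setting, the replicate block included. After recovery the count of members called higher in tryptamine (23) was 21 with no filter, 27 with the stricter filter, 28 with the compared groups alone, 26 with limma-voom, 34 with DESeq2 and 33 with the replicate block, and 22 without the NOP2/Sun rows, a setting chosen after seeing the data. Leaving out 1 library gave 0 to 14. The count called lower in DMSO recovery against DMSO at 4 h (11) was 17 with the replicate block, 5 with the compared groups alone and 5 with limma-voom, and 0 to 15 with 1 library left out. The count called higher in tryptamine recovery against tryptamine at 4 h (1) was 0 with no filter, 3 with the stricter filter, 2 with the replicate block, 2 with the length trend removed, 0 with the compared groups alone and 2 with DESeq2, and 0 to 1 with 1 library left out. Leaving out 1 library moved the medians between -0.02 and 0.22 at 1 h, -0.07 and 0.21 at 4 h, 0.65 and 0.77 after recovery, -0.57 and -0.27 for DMSO recovery against 4 h and 0.17 and 0.29 for tryptamine recovery against 4 h. The cause of these shifts was not tested, beyond fewer libraries in the fits that leave one out. With 3 libraries a group, rows of few counts such as MDN1 c93666-g1 carry wide errors.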
